A study of Ovis aries with 16 samples.

Results

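Heat shock chaperones of the cytosol and mitochondria were followed through a set of 16 RNA-seq libraries from sheep fat. The genes were taken by name from the deposited gene table: HSP90AA1, HSP90AB1, HSPA8, HSPH1, DNAJA1, DNAJB1, HSPD1, HSPE1 and HSPB1. Of these 9 names, 8 had a row among the 28524 genes of the table, and HSPE1, the co-chaperonin of HSPD1, was not analysed here. The study asked how exposure to bisphenol A (BPA, a plasticiser with oestrogen-like activity) before birth bears on gene expression in adult fat. Mothers of the control ewes were injected under the skin with corn oil alone, and mothers of the BPA ewes with 0.5 mg BPA per kg per day in corn oil, on gestation days 30 to 90 of about 147. The daughters were all females of about 21 months on a maintenance diet that kept them from becoming obese. Their oestrus had been synchronised with prostaglandin, and tissue was taken 24 h after the second injection, in the follicular phase, and frozen. Each of the 4 groups held 4 libraries: subcutaneous control, subcutaneous BPA, visceral control and visceral BPA. Subcutaneous fat came from over the sternum and visceral fat from the mesentery around the rumen. Libraries are called here by the number in their titles.

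Heat shock proteins hold unfolded proteins and help them fold or pass them on for breakdown, and most of them are made in unstressed cells as well as after heat, toxins or lack of oxygen. HSP70 proteins such as HSPA8 take up a client with the help of J proteins (DNAJA1, DNAJB1) and let it go with the help of exchange factors such as HSPH1. Some clients, steroid receptors and kinases among them, are then handed to HSP90 (HSP90AA1, HSP90AB1). HSPD1 folds proteins inside mitochondria, and HSPB1 is a small heat shock protein that binds clients without ATP. In many cell types the transcription factor HSF1 drives these genes under stress. In fat, HSP90 is known for stabilising the glucocorticoid receptor and PPARG, the main regulator of fat cell differentiation.

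All 8 chaperones were counted in every library. The lowest single count was 30 for DNAJA1 and the highest 63894 for HSP90AA1. Total counts were 4738482 to 6223460 in subcutaneous control, 3046126 to 4828287 in subcutaneous BPA, 10998858 to 13110261 in visceral control and 6768945 to 14305764 in visceral BPA libraries, so depth and depot moved together. Values below are in CPM (counts-per-million of the TMM-normalised library size, on one scale over all 16 libraries). All 12 fat cell markers examined were detected in every group, with summed levels of 13318 to 35245 CPM. One library stood apart: visceral BPA library 984, the deepest, gave 0.7796% of its counts to the 8 chaperones, against 0.3533% to 0.4403% in the other 7 visceral libraries. Depot fold changes of the chaperones in BPA ewes are given with and without it, as are the BPA effects of some of them. Values of other genes include it unless stated. In bulk tissue, fewer cells of a type and less RNA per cell cannot be told apart. HSPA8, the HSP90 genes and HSPD1 have near-identical processed copies in mammalian genomes, and how reads with several matches were counted is not given in the sources used here, so their counts carry that uncertainty.

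HSP90AA1 was the most abundant of the 8 transcripts once counts were divided by gene length. On this per-length scale (counts per base, scaled to the same sum over all genes in each library) HSP90AA1 was at rank 1 in 14 of 16 libraries, with levels from 506.6 to 3847. HSPB1 was at rank 2 in 13 libraries (510.7 to 1913) and HSP90AB1 at rank 3 in 15 (420.5 to 1539), and the ranges of these 3 genes overlapped. HSPA8 came next, at rank 4 in 12 libraries, with 54.63 to 634.3. DNAJB1 (39.85 to 169.0) and HSPD1 (35.73 to 160.9) changed places between libraries. HSPH1 was at rank 7 in 13 libraries (19.92 to 202.4) and DNAJA1 at rank 8 in 15 (9.342 to 67.31). The gene models were compact for HSPB1, with 3 exons and 928 bases of exon, and for DNAJB1, with 4 exons and 2654 bases. HSPH1 had the longest model, with 18 exons and 3673 bases of exon over a span of 23422 bases.

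**Figure D1:**
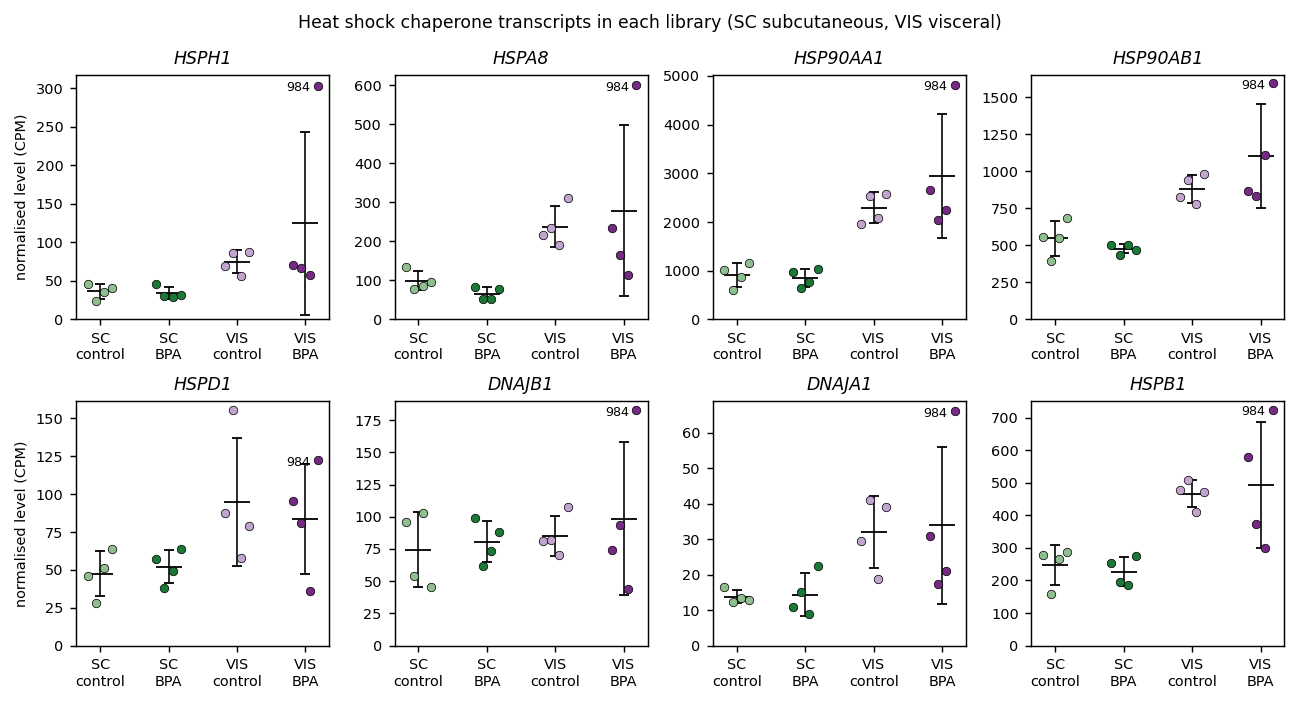
Normalised level (CPM, linear axis from 0) of each of the 8 chaperones in every library, by depot and treatment; points are libraries, bars the mean and whiskers the SD of 4 libraries. Levels of HSP90AA1 lay between 598.1 and 1154 CPM in subcutaneous libraries and between 1960 and 4818 CPM in visceral libraries, and visceral BPA library 984 was the highest point for 7 of the 8 genes.

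In control ewes, visceral fat held more of 6 of the 8 chaperone transcripts than subcutaneous fat: HSP90AA1, HSP90AB1, HSPA8, HSPH1, DNAJA1 and HSPB1 rose by 1.62 to 2.53-fold. HSPD1 was 2.02-fold higher but did not pass the threshold, and DNAJB1 differed by 1.15-fold. Genes were called at an adjusted p under 0.05 from edgeR's quasi-likelihood test, fitted over all 14456 genes with enough counts. Of the genes tested 13.3% were called, and 7.17% of the genes tested were called as higher in visceral fat. The groups did not overlap for the same 6 chaperones, as for 10.2% of all genes in that direction. The median log2 fold change was 1.03 over the chaperones and -0.01 over all genes. Visceral libraries were deeper, and with every library thinned to the lowest total 6 chaperones were called again.

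Both cytosolic HSP90 genes were higher in visceral control fat. HSP90AA1, the stress-inducible form, stood at 1023, 598.1, 868.3 and 1154 CPM in subcutaneous control libraries 902, 924, 928 and 931. It stood at 1960, 2543, 2091 and 2585 CPM in visceral control libraries 902, 908, 924 and 928. Every visceral value was above every subcutaneous one, with library 924 the lowest of its depot in subcutaneous fat. The difference was 2.53-fold (log2 1.34 ± 0.21 SE, adjusted p = 0.00295, edgeR). HSP90AB1, the constitutive form, ranged from 394.3 to 686.4 CPM in subcutaneous and from 779.2 to 980.6 CPM in visceral control fat. That was a 1.62-fold difference (log2 0.70 ± 0.18, adjusted p = 0.0257, edgeR). Its call was lost when visceral library 908 or 928, or subcutaneous library 902, 924 or 928, was left out, with adjusted p values of 0.0614, 0.0768, 0.0574, 0.0531 and 0.0632.

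The HSP70 system followed the same order of depots. HSPA8, the constitutive cytosolic HSP70, measured 134.2, 79.2, 85.4 and 96.7 CPM in subcutaneous control libraries 902, 924, 928 and 931. In visceral control libraries 902, 908, 924 and 928 it measured 217.6, 233.6, 190.0 and 311.1 CPM. The groups did not overlap, and 902 in subcutaneous fat and 928 in visceral fat stood above the rest of their groups. This was a 2.42-fold difference (log2 1.28 ± 0.20, adjusted p = 0.00324, edgeR). HSPH1, the HSP110 that recharges HSP70 with ATP, measured 46.3, 23.6, 35.3 and 40.6 CPM in subcutaneous and 69.8, 86.7, 56.1 and 87.7 CPM in visceral control libraries, in the same order of libraries. Its groups were also apart, at 2.07-fold (log2 1.05 ± 0.22, adjusted p = 0.0111, edgeR). The HSPH1 call was lost in one edgeR fit of all 16 libraries and with limma voom, at adjusted p values of 0.125 and 0.0645.

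Its 2 J protein partners in the set differed from each other. DNAJA1, a J protein of the cytosol, was the least abundant member, at 12.2 to 16.5 CPM in subcutaneous and 18.7 to 40.9 CPM in visceral control fat. Its groups did not overlap, and the difference was 2.34-fold (log2 1.22 ± 0.24, adjusted p = 0.00977, edgeR; 0.0513 with limma voom). DNAJB1, the main heat-inducible J protein, had 95.9, 53.8, 102.7 and 45.5 CPM in subcutaneous and 80.9, 81.7, 70.5 and 107.2 CPM in visceral control libraries. The subcutaneous values fell into a higher and a lower pair that enclosed most of the visceral ones. The fold change was 1.15 (log2 0.20 ± 0.25, adjusted p = 0.638, edgeR).

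The mitochondrial chaperonin and the small heat shock protein completed the set. HSPD1 measured 46.0, 28.1, 51.2 and 63.9 CPM in subcutaneous and 87.6, 155.2, 57.5 and 78.9 CPM in visceral control libraries. Visceral library 924 lay inside the subcutaneous range, and 908 was far above the rest of its group. The difference was 2.02-fold (log2 1.01 ± 0.31, adjusted p = 0.0525, edgeR). HSPB1 ranged from 158.0 to 288.2 CPM in subcutaneous and from 410.3 to 508.5 CPM in visceral control fat. That was 1.89-fold (log2 0.92 ± 0.19, adjusted p = 0.0108, edgeR).

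Libraries 902, 924 and 928 carried the same numbers in both depots, and they deviated from their group means together. Within these 3 pairs, 7 chaperones were higher in the visceral library every time. The share of all genes with that pattern was not counted. HSP90AA1 was 1.92, 3.50 and 2.98 times higher in visceral fat of 902, 924 and 928, and HSPA8 was 1.62, 2.40 and 3.64 times higher. DNAJB1 was the exception, with visceral to subcutaneous ratios of 0.843, 1.31 and 1.04. A fit with the number as a block added HSPD1 to the calls, at log2 0.86 ± 0.14 and an adjusted p of 0.00287 (edgeR), which brought the count to 7 of 8. The same fit called 2631 of 14456 genes, in place of 1928. Its depot difference rested on the 3 pairs, since visceral 908 and subcutaneous 931 had no partner.

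**Figure D2:**
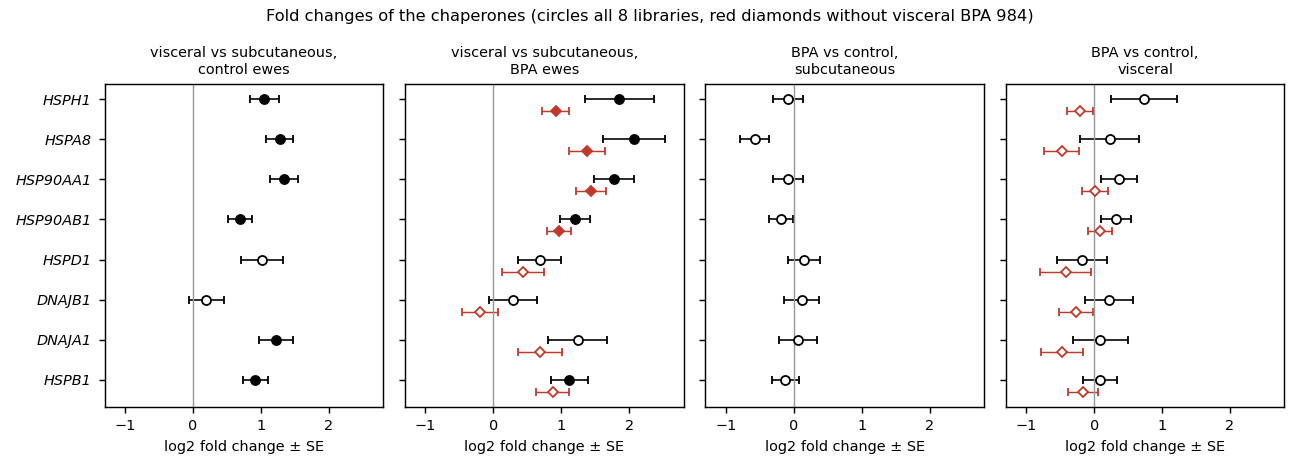
Log2 fold change with its SE for the 8 chaperones in 4 comparisons (edgeR, 8 libraries each; filled symbols have an adjusted p under 0.05), with red diamonds for the fits without visceral BPA library 984. In the depot comparisons nearly all points lie above 0, up to 2.07 for HSPA8 in BPA ewes; in the BPA comparisons every symbol is open, and without 984 the visceral values lie between -0.48 and 0.08.

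Other parts of the chaperone network were compared in the same control fit. Of 14 HSP90 co-chaperones tested, 5 rose in visceral fat and none fell. They included PTGES3 (p23, which closes the HSP90 clamp), 1.74-fold higher with an adjusted p of 0.00993, and CDC37 (which brings kinases to HSP90), 1.83-fold higher with 0.0122. PPID, a prolyl isomerase that binds HSP90, rose 1.62-fold with 0.0321 (edgeR for all). The median log2 fold change of the 14 was 0.43. Of 10 further HSP70 and HSP110 genes, HSPA4, HSPA4L and HSPA12A rose by 1.75, 3.30 and 1.84-fold and HSPA2 fell by 2.01-fold, with adjusted p values of 0.0251, 0.0376, 0.0359 and 0.00149 (edgeR). Only DNAJC21, a J protein of ribosome assembly, rose among 17 further J proteins, by 1.80-fold with an adjusted p of 0.00384 (edgeR), and the median of the 17 was 0.17. BAG3 and ST13, partners of HSP70, both rose 1.66-fold among 8 exchange factors and BAG proteins, with adjusted p values of 0.0348 and 0.0321 (edgeR). Which calls of list genes ended when single libraries were left out is not given here. Over all genes 1043 to 1755 were then called, in place of 1928.

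Further chaperone lists were read from the same fit. None of 12 further mitochondrial chaperones and proteases passed the threshold in edgeR, and their median log2 fold change was 0.26. All 14 subunits of the cytosolic chaperonin CCT and of prefoldin had positive values with a median of 0.42, and 3 rose: CCT3 by 1.85-fold, CCT6A by 2.27-fold and PFDN5 by 1.76-fold, with adjusted p values of 0.0303, 0.0168 and 0.0117 (edgeR). In the endoplasmic reticulum 3 of 17 rose, HSP90B1 by 1.88-fold, CANX by 1.67-fold and SIL1 by 1.49-fold, with 0.00795, 0.0290 and 0.0400 (edgeR). Of the other small heat shock proteins, 1 of 5 rose: CRYAB, 1.83-fold with an adjusted p of 0.0225 (edgeR). HSF1 itself had 50.4 ± 2.84 CPM in visceral and 50.8 ± 8.23 CPM in subcutaneous control fat (SD, n = 4 each), and the only one of 5 genes for heat shock factors and partners that passed was HSF4, which fell by 2.24-fold with an adjusted p of 0.0334 (edgeR). Of 18 genes known to rise with heat shock in mammalian cells, 10 of which are also in the lists above, 6 rose and 12 did not pass, with a median of 0.47. Of these 6, 4 were among those already counted. CRYAB, BAG3 and HSPA4L, named above, had the smallest p values of the 6.

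Markers of cell types also moved with the depot. Mesothelial markers, from the lining of the abdominal cavity, summed to 1.88 to 4.83 CPM in subcutaneous and 41.2 to 86.1 CPM in visceral control libraries, and 1 of the 6 was at 0 in all subcutaneous libraries. Of 12 fat cell markers 4 rose, among them PPARG by 1.92-fold (adjusted p = 0.00568, edgeR). All 12 had positive values, with a median log2 fold change of 0.704. The summed ranges were 13318 to 27065 CPM and 24386 to 35245 CPM. Endothelial markers summed to 1677 to 2713 CPM and 2737 to 2955 CPM, and 2 of 6 rose. Macrophage markers summed to 452 to 608 CPM and 597 to 781 CPM. Of these 6 macrophage markers 1 rose, and their median log2 fold change was -0.006. Immediate early genes, which respond within minutes to tissue handling, summed to 394 to 620 CPM and 627 to 756 CPM. Of these 8 genes 1, EGR1, rose 3.92-fold (adjusted p = 0.00572, edgeR). All 8 had positive values, with a median log2 fold change of 0.388. Among 7 progenitor markers CD34 fell and 2 had positive values, with a median of -0.464. TNNT3 fell, as 1 of 2 skeletal muscle markers tested. Of 6 lymphocyte markers 2 were positive (median -0.397), of 2 markers of dividing cells 0 (-0.467) and of 6 smooth muscle markers 5 (0.416), with 0 called in these 3 lists. The part of these markers and genes in the chaperone differences was not tested.

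In BPA ewes the depots differed in the same direction, and 5 of 8 chaperones rose in visceral fat: HSP90AA1, HSP90AB1, HSPA8, HSPH1 and HSPB1. Of 13782 genes tested 9.07% were called, 5.13% of those tested were called as higher in visceral fat, and 9.58% showed no overlap in that direction. This comparison shares no library with the one in control ewes. The median log2 fold change was 1.22 over the chaperones and 0.02 over all genes. Without visceral BPA library 984 these medians were 0.895 and 0.012. Between 2 and 6 chaperones were called when one library at a time was left out.

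The HSP90 genes gave the steadiest difference. HSP90AA1 measured 969.3, 635.1, 773.2 and 1042 CPM in subcutaneous BPA libraries 918, 922, 941 and 977. In visceral BPA libraries 910, 918, 977 and 984 it measured 2664, 2033, 2251 and 4818 CPM. All visceral values were above all subcutaneous ones, and 984 was far above the other 3. The difference was 3.43-fold (log2 1.78 ± 0.29, adjusted p = 0.00843, edgeR) and 2.70-fold without 984 (adjusted p = 0.00940, edgeR). HSP90AB1 ranged from 436.0 to 504.5 CPM in subcutaneous and from 831.9 to 1594 CPM in visceral BPA fat, a 2.30-fold difference (log2 1.20 ± 0.22, adjusted p = 0.0119, edgeR). Both genes remained called whichever of the 8 libraries was left out.

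For HSPA8 and HSPH1 the size of the difference rested on 984. HSPA8 measured 82.3, 51.8, 51.4 and 78.7 CPM in subcutaneous BPA and 234.5, 165.1, 114.9 and 600.5 CPM in visceral BPA libraries. The groups did not overlap, and 984 was more than double the next value. The difference was 4.21-fold (log2 2.07 ± 0.45, adjusted p = 0.0207, edgeR) and 2.59-fold without 984 (adjusted p = 0.0200, edgeR). Leaving out subcutaneous library 922 or 941 ended the call, with adjusted p values of 0.0769 and 0.0674. HSPH1 measured 46.2, 29.8, 29.4 and 31.7 CPM in subcutaneous BPA and 70.7, 67.0, 57.2 and 302.8 CPM in visceral BPA libraries. Its visceral values without 984 lay close together, all above the subcutaneous ones. HSPH1 was 3.62-fold higher (log2 1.86 ± 0.50, adjusted p = 0.0452, edgeR) and 1.89-fold higher without 984 (adjusted p = 0.0300, edgeR). Its call ended without subcutaneous library 918, 922, 941 or 977, at adjusted p values of 0.0703, 0.132, 0.112 and 0.0987, and with robust moderation at 0.0506.

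HSPB1 rose 2.17-fold in visceral BPA fat, from 185.3 to 274.6 CPM in subcutaneous libraries to 298.3 to 723.0 CPM in visceral ones (log2 1.12 ± 0.27, adjusted p = 0.0315, edgeR). That call was lost in 6 of the 8 fits that left out one library, at adjusted p values of 0.0514 to 0.103: visceral 910 or 984, or any of the 4 subcutaneous libraries. Without 984 HSPB1 was 1.83-fold higher (adjusted p = 0.0652, edgeR). DNAJA1 had 10.9, 15.1, 8.8 and 22.5 CPM in subcutaneous and 30.9, 17.5, 21.2 and 66.1 CPM in visceral BPA libraries. Subcutaneous 977 lay above visceral 918 and 977, and the 2.36-fold difference did not pass (log2 1.24 ± 0.43, adjusted p = 0.0928, edgeR). Without 984 the DNAJA1 difference was 1.61-fold (adjusted p = 0.231, edgeR). HSPD1 was 1.6-fold (adjusted p = 0.195) and DNAJB1 1.22-fold higher (adjusted p = 0.647, edgeR), both with overlapping groups. Without 984 HSPD1 was 1.36-fold higher and DNAJB1 turned to -0.20 on the log2 scale.

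Among the other chaperone genes in BPA ewes, 3 of 14 HSP90 co-chaperones rose, CDC37 by 2.0-fold, PTGES3 by 2.18-fold and PPID by 1.87-fold, with adjusted p values of 0.0184, 0.0310 and 0.0386 (edgeR). HSPA4L rose 7.86-fold from a very low level of 0.811 CPM, with an adjusted p of 0.0132 (edgeR), and HSPA12A 1.83-fold with 0.0384 (edgeR), the 2 called of 10 further HSP70 and HSP110 genes. CCT3, CCT6A and PFDN5 rose again, by 1.87, 2.50 and 1.79-fold (adjusted p = 0.0362, 0.0327 and 0.0382, edgeR), and none of the 12 mitochondrial genes passed in edgeR. The counts were 1 of 17 J proteins (DNAJC21, 1.6-fold, adjusted p = 0.0223, edgeR), 1 of 8 exchange factors and BAG proteins (ST13, 1.85-fold, 0.0321), 0 of 5 small heat shock proteins and 3 of 17 in the endoplasmic reticulum (CANX, 1.83-fold, 0.0187; HSP90B1, 1.95-fold, 0.0259; CRELD2, 2.83-fold, 0.0437). Of the same 18 genes known to rise with heat shock, 4 did (HSPA4L, counted above, was one), among them SERPINH1 (the collagen chaperone) by 2.42-fold and UBB (a ubiquitin gene) by 1.91-fold, with adjusted p values of 0.0121 and 0.0312 (edgeR). HSF4 fell by 2.63-fold (adjusted p = 0.0184, edgeR), while HSF1 had 57.7 ± 5.28 CPM in visceral and 58.1 ± 14.8 CPM in subcutaneous BPA fat (SD, n = 4 each). With single libraries left out, log2 fold changes ran from 0.737 to 1.283 for PTGES3 and from 0.862 to 1.501 for CCT6A. Over all genes 369 to 2206 were then called, in place of 1250. Which calls of list genes ended is not given here. Mesothelial markers summed to 0.825 to 2.71 CPM and 26.5 to 252 CPM in the 2 depots. Macrophage markers summed to 251 to 394 CPM and 395 to 984 CPM. CD68 and TYROBP rose, and all 6 macrophage markers had positive values, with a median log2 fold change of 0.819. Immediate early genes summed to 264 to 749 CPM and 394 to 1174 CPM. All 8 had positive values, with a median log2 fold change of 1.215, and 0 were called. Fat cell markers summed to 16616 to 28193 CPM and 18263 to 29520 CPM, and 0 of 12 were called. Endothelial markers summed to 1512 to 2308 CPM and 2267 to 2554 CPM, and 1 of 6 rose. Among 7 progenitor markers CD34 fell and 3 had positive values, with a median of -0.254. The part of these markers and genes in the result was not tested.

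The balance of the 2 cytosolic HSP90 transcripts differed between the depots as well. On the per-length scale the ratio of HSP90AA1 to HSP90AB1 was 1.37 ± 0.117 in subcutaneous control, 1.48 ± 0.294 in subcutaneous BPA, 2.15 ± 0.134 in visceral control and 2.18 ± 0.415 in visceral BPA fat (SD, n = 4 each). In controls the ratio ran from 1.25 to 1.52 in subcutaneous and from 1.95 to 2.24 in visceral libraries, with no overlap. In BPA ewes it ran from 1.20 to 1.83 and from 1.67 to 2.54, and visceral library 977 lay below subcutaneous library 977. HSP90AA1 made up 31.1% to 36.4% of the summed per-length level of the 8 chaperones in subcutaneous and 38.2% to 45.9% in visceral libraries. No test was run on these ratios.

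Within subcutaneous fat no chaperone differed between BPA and control ewes at the threshold. By edgeR 0 of 8 were called, beside 0.709% of 13535 genes, and DESeq2 and limma voom also called 0 of 8. All 8 overlapped between the groups, and the median log2 fold change was -0.09 against -0.01 over all genes. HSPA8 was the only chaperone with an unadjusted p under 0.05 in edgeR, as were 1926 of all genes. Its 4 values in BPA ewes, 51.4 to 82.3 CPM, lay mostly below the control range of 79.2 to 134.2 CPM, at 1.49-fold lower (log2 -0.58 ± 0.21, adjusted p = 0.261, edgeR). The other 7 lay between -0.19 for HSP90AB1 and 0.15 for HSPD1, with SEs of 0.17 to 0.27. HSP90AA1 averaged 855.0 ± 185.5 CPM in BPA and 910.9 ± 239.0 CPM in control ewes (SD, n = 4 each). The ratio of HSPA8 to HSPH1 per length was 3.06 ± 0.573 in BPA and 4.37 ± 0.724 in control libraries, with ranges of 2.74 to 3.92 and 3.77 to 5.30. Of 6 macrophage markers 0 had positive values (median log2 -0.914), and TYROBP fell 3.36-fold (adjusted p = 0.0447, edgeR). Of 7 progenitor markers 0 were positive (-0.734), and THY1 fell 2.04-fold (0.0429, edgeR). Of 6 smooth muscle markers 5 were positive (0.46), and LMOD1 rose 2.46-fold (0.043, edgeR). Of 12 fat cell markers 11 were positive (0.251) and 0 were called. The part of these markers in the chaperone values was not tested.

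In visceral fat the BPA comparison was also without a call. By edgeR 0 of 8 chaperones passed, as did 0.0% of 14774 genes; 1103 genes had an unadjusted p under 0.05, none of them a chaperone, DESeq2 called 6 genes and limma voom 0. Fold changes were positive for 7 of 8, from 1.06-fold for HSPB1 to 1.66-fold for HSPH1 (log2 0.73 ± 0.49, adjusted p = 0.693, edgeR). HSPD1 alone was negative, at log2 -0.18 ± 0.37. The positive values depended on 984: without it 2 of 8 were positive, the median went from 0.22 to -0.24, and HSPH1 went to -0.21 ± 0.20. HSPA8 moved in the same way from 0.23 ± 0.43 to -0.48 ± 0.26, with an adjusted p of 0.476 in the second fit (edgeR). HSP90AA1 went from 0.36 ± 0.27 to 0.01 ± 0.19. None of the 8 was called with or without 984. With 984 included, 6 of 6 smooth muscle markers had positive values (median log2 1.385), as did 8 of 8 immediate early genes (0.488). Among progenitor markers 0 of 7 were positive (-0.451), among macrophage markers 1 of 6 (-0.164) and among fat cell markers 4 of 12 (-0.047). The part of these markers and genes in the chaperone values was not tested.

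The BPA effect was then compared between depots in one fit of all 16 libraries. No chaperone and 0.0% of 14793 genes passed by edgeR; 917 genes and no chaperone had an unadjusted p under 0.05, DESeq2 called 11 genes and limma voom 0. The largest of the 8 differences, visceral effect minus subcutaneous effect, was log2 0.82 ± 0.60 for HSPH1 (adjusted p = 0.957, edgeR), which went to -0.13 ± 0.31 without 984. HSP90AB1 had the smallest unadjusted p of the 8, 0.0865, at log2 0.51 ± 0.28 (adjusted p = 0.866, edgeR).

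**Figure D3:**
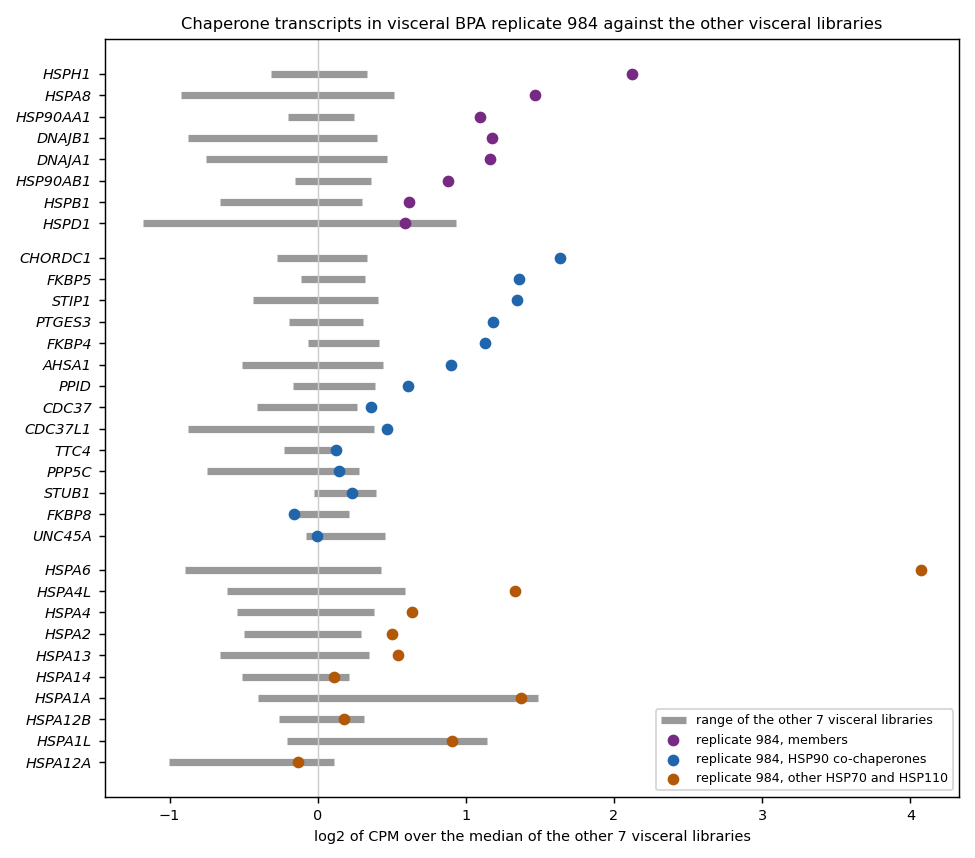
Log2 ratio of the CPM of visceral BPA library 984 (points) to the median of the other 7 visceral libraries, for the 8 chaperones, 14 HSP90 co-chaperones and 10 further HSP70 and HSP110 genes; grey bars span the other 7 libraries. HSPH1, at 302.8 CPM against 56.1 to 87.7, and HSPA6, at 56.2 CPM against 1.80 to 4.50, lie farthest beyond the bars, while HSPD1 lies inside its bar.

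Library 984 had the highest level of 7 chaperones among the 8 visceral libraries, where 14.6% of all genes were highest in it. In 5 of them it was over 1.5 times the next highest library, as for 0.927% of all genes. HSPH1 was 3.45 times the next highest, HSPA8 1.93 times, HSP90AA1 1.81 times, DNAJB1 1.70 times and DNAJA1 1.62 times. HSP90AB1 and HSPB1 were highest by 1.43 and 1.25 times, and HSPD1 was second to visceral control library 908. These are values of one library, chosen after they were seen, and no test goes with them.

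Other chaperone lists were read in the same library, with no test between lists. It was the highest of the 8 for 10 of 14 HSP90 co-chaperones, 5 of 10 further HSP70 and HSP110 genes, 4 of 8 exchange factors and BAG proteins, 7 of 17 J proteins, 6 of 14 CCT and prefoldin subunits, 9 of 17 endoplasmic reticulum chaperones, 1 of 5 heat shock factors and partners, 3 of 12 mitochondrial genes and 0 of 5 small heat shock proteins. Among genes picked out after their values were seen, HSPA6, an HSP70 made almost only under stress in human cells, had 56.2 CPM against 1.80 to 4.50 CPM in the other 7. CHORDC1 (an HSP90 co-chaperone) had 187 against 49.7 to 75.8 CPM, BAG3 had 302 against 84.0 to 134 CPM, FKBP5 had 205 against 73.9 to 99.4 CPM, and STIP1, which bridges HSP70 and HSP90, had 138 against 40.1 to 71.9 CPM. HSPA1A, the main heat-inducible HSP70, had 47.5 CPM in 984 and lay inside the range of the other 7, 13.9 to 51.5 CPM. HSPA1A and HSPA6 are close in sequence, so reads may have been shared between them and with further copies.

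Other values of 984 are set beside these. HSF1 had 60.8 CPM, within the 46.9 to 61.7 CPM of the other visceral libraries. Of 8 immediate early genes 984 was the highest visceral library for 1, ATF3, at 43.8 CPM against 5.31 to 29.9 CPM in the other 7, whereas FOS and EGR1 had 13.6 and 52.0 CPM, within ranges of 10.7 to 103 and 27.7 to 221 CPM. Mesothelial markers summed to 26.5 CPM, the lowest of the visceral BPA group. Fat cell and macrophage markers summed to 29520 and 984 CPM, the highest of that group, but only 1 of 12 and 2 of 6 of these markers were highest in 984 among the visceral libraries. MRC1 made up 718 CPM of the macrophage sum, while MSR1, at 6.94 CPM, was below the 7.58 to 23.7 CPM of the other 7, and the fat cell marker LEP, at 106 CPM, was below their 127 to 693 CPM. The library also had the largest total count. The part of these in its chaperone levels was not tested.

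**Figure D4:**
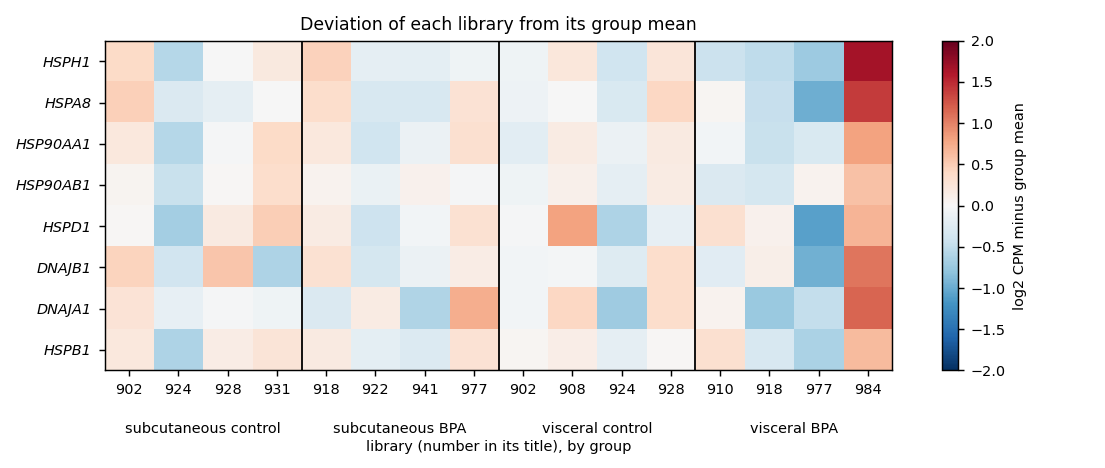
Log2 CPM of each chaperone in each library minus the mean of its group, on a colour scale from -2 to 2. Visceral BPA library 984 is above its group mean for all 8 genes, and subcutaneous control library 924 is below it for all 8.

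Within groups the 8 transcripts moved up and down together from library to library. Over 16 libraries, with each group centred on its mean, the 28 pairwise Pearson correlations of log2 CPM ran from 0.389 (HSP90AB1 with DNAJB1) to 0.914 (HSPH1 with HSPA8), with a median of 0.702. Without 984 they ran from -0.097 to 0.806 with a median of 0.559, and 27 of 28 were positive. HSPD1 with HSPB1 was then the closest pair, at 0.806. Values of one library share its depth, its scaling and its cell makeup, so these are descriptions. Library 924 was the lowest of its group for 7 of 8 chaperones in subcutaneous control fat, DNAJB1 excepted, and for 7 of 8 in visceral control fat, HSP90AA1 excepted.

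Other genes were ranked by how closely they followed the mean of the 8 chaperones. Among 10102 genes with a mean of at least 10 CPM, the closest over the 16 centred libraries was STIP1, at r = 0.953. TMEM33, PRKCI, PCBP1, UBL3, STT3B, SEC24B and CCT4 followed at 0.943, 0.940, 0.938, 0.933, 0.931, 0.930 and 0.929. Without 984 these 8 lay between 0.852 for UBL3 and 0.939 for PCBP1, and PCBP1 ranked highest of them, at 11. Of the 100 closest genes over all 16 libraries 8 were in the other chaperone lists (STIP1, CCT4, DNAJC3, PTGES3, HSPA4, CCT6A, DNAJB4 and CCT2), which make up 0.950% of the genes ranked. That count includes 984 and was not taken without it. Without 984 STIP1 went to rank 75 and CCT4 to rank 177. No test was run on the count.

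Some of the chaperone genes have close neighbours in the genome. In the coordinates of the deposited table HSPD1 started 39 bases from LOC106990104, which is on the other strand. LOC106990104 had 48.3 ± 7.84 CPM in visceral and 35.3 ± 9.83 CPM in subcutaneous control fat (SD, n = 4 each), 1.37-fold higher (adjusted p = 0.180, edgeR), beside 2.02-fold for HSPD1. HSPA8 holds 2 short genes on its own strand, LOC114118596 of 88 bases in intron 5 and LOC114118597 of 84 bases in intron 8. LOC114118597 was 3.04-fold higher in subcutaneous BPA than control fat, from 5.88 ± 1.23 to 17.9 ± 7.46 CPM with no overlap (log2 1.6 ± 0.33, adjusted p = 0.0576, edgeR). LOC114118596 was 2.30-fold higher, from 16.4 ± 5.13 to 37.6 ± 13.2 CPM (log2 1.20 ± 0.31, adjusted p = 0.118, edgeR), while HSPA8 itself was 1.49-fold lower there. Neither passed the threshold in that edgeR fit, where 4.27% of all genes were higher with no overlap. Both passed with DESeq2, at adjusted p values of 0.000686 and 0.0128, and in edgeR without subcutaneous BPA library 977, at 0.0180 and 0.0345, and LOC114118597 also with no filter, at 0.0274. Over all alternatives the adjusted p ran up to 0.251 for LOC114118597 and 0.331 for LOC114118596.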

How the data were processed

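Total RNA of each fat sample was depleted of ribosomal RNA and made into libraries with a low-input SMARTer kit, per the labels. Per the submitters' processing notes, FastQC 0.11.5, MultiQC 0.9, STAR 2.6.0c and featureCounts of Subread 1.6.1 were used. For the genome build, annotation, strandedness and reads with several matches: not given in the sources used here. The deposited table holds whole-number counts per gene for all 16 libraries and was used as raw counts, although it is described as normalised. Coordinates name no build and are not printed, and no sequences were at hand. From these counts edgeR 4.0.16 in R 4.3.3 was run on all genes kept by filterByExpr (minimum count 10, minimum total 15), with TMM scaling, glmQLFit and glmQLFTest (two-sided) and Benjamini-Hochberg adjustment over all genes tested. Each comparison used the 8 libraries of its groups, and the difference between BPA effects used all 16. CPM values are on one TMM scale over 16 libraries, so ratios of their means can differ slightly from fitted fold changes. A check on simulated counts preceded the fits.

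The number in a title names a library. The labels do not say outright that libraries are separate animals, so p-values measure the spread between these libraries. The control numbers 902, 924 and 928 pair the depots, since the correlations of same-numbered deviations from group means were 0.287, 0.400 and 0.332; for BPA they were 0.167 for 918 and 0.031 for 977. Alternatives were DESeq2 1.42.0 (its test and its size factors), no filter, at least 50 counts in 4 libraries, a threshold of 0.10, robust moderation, one fit of 16 libraries, the replicate block, limma 3.58.1 voom with a random block, omission of each library, omission of subcutaneous controls 902 and 924, and, chosen after seeing the data, thinning. The members and lists were chosen with earlier results of these data known. Genes named beyond the members are up to 3 called genes per list and comparison with the smallest p, and the 8 genes most correlated with the members' mean. HSF1, the genes given for library 984 and the HSPA8 and HSPD1 neighbours were chosen after their values were seen.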

Additional observations from a re-analysis of the deposited data

Results flagged for a closer look

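Of 32 sets of 4 libraries (8 chaperones in 4 groups) tested for a library far from the other 3, 3 held one. Chance gives about 1 in 20 for each set. The 8 chaperones share their libraries and moved together, so the sets are not independent. HSPH1 in visceral BPA library 984 was at 303 CPM, against 57.2 to 70.7 CPM in the other 3 libraries of its group. HSPH1 in subcutaneous BPA library 918 was at 46.2 CPM, against 29.4 to 31.7 CPM. HSPB1 in subcutaneous control library 924 was low, at 158 CPM against 266 to 288 CPM.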

How the results depend on the processing

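Counts of chaperones called in the 5 comparisons stayed within 1.5 times of those reported under all alternatives run, except in the depot comparison of BPA ewes: 3 were called with the replicate block (numbers 918 and 977), with 892 genes in place of 1250, and 2 to 6 when single libraries were left out. Whether these numbers pair the depots is unclear. The correlation of same-numbered deviations was 0.167 for 918, above every pairing of unlike BPA numbers, and 0.031 for 977, which was not. The depot difference in the block fit rested on 918 and 977, since visceral 910 and 984 and subcutaneous 922 and 941 had no partner. The part of these unpaired libraries in the changes with the block was not tested. With the block HSPB1 went from 1.12 to 0.35 (adjusted p = 0.403) and HSPH1 from 1.86 to 0.69 (0.0833), neither called, HSPA8 from 2.07 to 0.78 (0.0400, still called), and DNAJB1 went to -0.525 and HSPD1 to -0.146 there, and the range for DNAJB1 without single libraries was -0.196 to 0.531. In controls the block gave 2631 genes in place of 1928 and changed no chaperone call other than that of HSPD1. Directions changed only for chaperones that were not called. With limma voom, HSPH1 in subcutaneous BPA fat went to 0.026, DNAJA1, HSPA8 and HSPB1 in visceral BPA fat to -0.016, -0.103 and -0.063, and DNAJA1, DNAJB1 and HSPB1 in the difference between BPA effects to -0.107, -0.179 and -0.009; DNAJA1 went to -0.039 there after thinning. HSPD1 in subcutaneous BPA fat went to -0.132 without controls 902 and 924. Leaving out single libraries gave ranges for the subcutaneous BPA effect of -0.229 to 0.234 for DNAJA1, -0.052 to 0.312 for DNAJB1, -0.242 to 0.051 for HSP90AA1, -0.035 to 0.326 for HSPD1 and -0.25 to 0.057 for HSPH1. For the visceral BPA effect they were -0.471 to 0.306 for DNAJA1, -0.273 to 0.45 for DNAJB1, -0.476 to 0.478 for HSPA8, -0.163 to 0.251 for HSPB1, -0.422 to 0.164 for HSPD1 and -0.212 to 0.962 for HSPH1. For the difference between effects they were -0.53 to 0.327 for DNAJA1, -0.383 to 0.345 for DNAJB1, -0.039 to 0.385 for HSPB1, -0.562 to 0.026 for HSPD1 and -0.125 to 1.057 for HSPH1. Counts over all genes moved more. In the subcutaneous BPA comparison 96 genes became 216 at 0.10, 464 with DESeq2, 173 unfiltered, 54 with the strict filter, 46 in the fit of 16 libraries, 1 with voom, 0 without controls 902 and 924, and 32 to 128 without single libraries. In the visceral BPA comparison and the difference, 0 became 6 and 11 with DESeq2. In the control depot comparison 1928 became 3062 at 0.10, 2772 with DESeq2, 1049 after thinning and 1043 to 1755 without single libraries. In the BPA depot comparison 1250 became 2312 at 0.10, 2197 with DESeq2, 2408 in the fit of 16 libraries, 2300 with voom, 798 after thinning and 369 to 2206 without single libraries. The causes were not tested. With 4 libraries a group and chaperone counts as low as 30, no detection limit was measured, and a treatment difference of -0.58 with an SE of 0.21 (HSPA8, subcutaneous fat) did not pass.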
